A study of Mus musculus with 6 samples.

Results

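The genes described here encode 9 secreted growth and trophic factors that microglia and their neighbours can make: Igf1, Bdnf, Tgfb1, Tgfb2, Pdgfa, Pdgfb, Vegfa, Hbegf and Tgfa. They were picked by symbol from a matrix of 55401 genes, and each symbol matched 1 Ensembl identifier. Brain microglia were purified from MRL/lpr mice, a lupus-prone strain that carries the lpr mutation of Fas, and from MRL/mpj mice, the strain of the same MRL background without that mutation. All mice were untreated, female by the methods and 6 weeks old, and each strain gave 3 libraries of total RNA. The methods describe a Percoll gradient and magnetic selection for CD11b, which other myeloid cells carry as well. The labels do not say whether the 3 libraries of a strain came from separate mice, so p-values measure the spread between these libraries, which may be technical. The comparison asks which of these factor genes differ between microglia of lupus mice and of control mice.

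Trophic factors act at short range and their families work in a similar way. A ligand binds a receptor at the surface of a neighbouring or the same cell, and binding proteins, proteases and intracellular inhibitors set how much of the signal gets through. IGF-1 promotes growth and survival, and microglia are a known source of it in development and injury. BDNF is a neurotrophin that acts on synapses through the receptor TrkB. TGF-beta is secreted in a latent complex, has to be released from it, and keeps microglia in their homeostatic state. PDGF-B recruits pericytes to vessels, VEGF-A drives vessel growth, and HB-EGF and TGF-alpha are membrane-anchored ligands of the EGF receptor that are shed by metalloproteases.

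Counts totalled between 45481609 and 49846634 per library. One read pair often appeared to be worth 4 counts. In each library between 1138 and 1288 genes had exactly 4 counts, against 320 to 415 genes with 3 counts. Only 35.9% of counts from 1 to 40 were multiples of 4, however, so this unit does not hold for every count. A low count may stand for only a few read pairs. Microglial identity genes were high in every library, with at least 99987 counts of Tmem119 and at least 5420 counts of Aif1. Of 19554 genes tested, 20.2% differed between the strains (adjusted p below 0.05, quasi-likelihood F test of edgeR, Benjamini-Hochberg), 11.1% being higher and 9.06% lower in MRL/lpr. Shares fell to 8.34% in all, 4.67% higher and 3.66% lower, where the log2 fold change also had to reach 1 in size. Higher genes made up 55.1% of the calls, against 36.9% with scaling by library size only, which moved the median log2 fold change of all tested genes from -0.01 to -0.13.

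Of the 9 factor genes, 8 had enough counts to be tested. Pdgfb and Hbegf were higher in the MRL/lpr libraries and Tgfb2 and Vegfa were lower, each by less than 2-fold. Igf1, Tgfb1, Pdgfa and Tgfa did not pass the test, and Bdnf was too low to be tested. The 4 calls among 8 tested genes stand beside 20.2% over all tested genes, and none of the 4 reached a log2 fold change of 1 in either direction. Values of the strains did not overlap in 5 of the 8 genes, against 39% of all tested genes. The median log2 fold change of the 8 genes was -0.20.

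**Figure D1:**
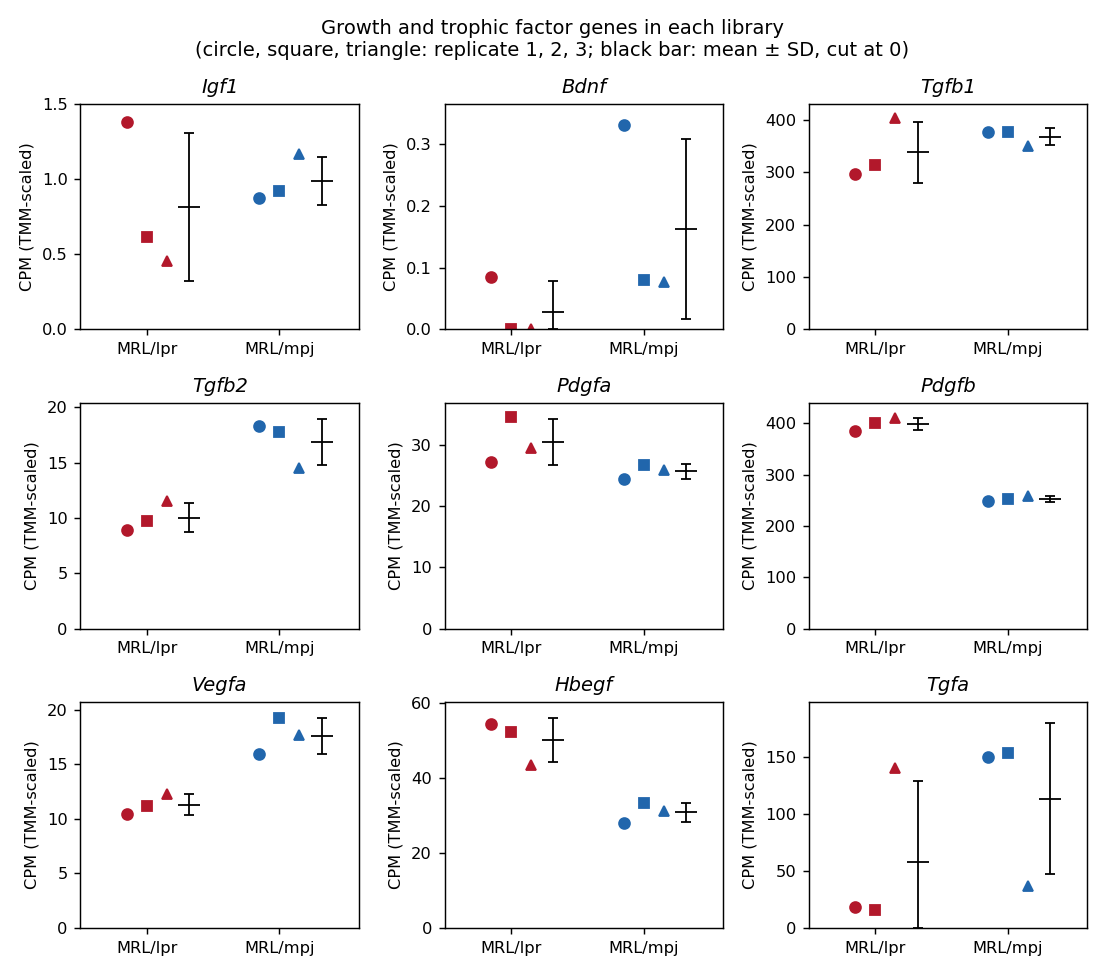
CPM (counts scaled to a common library size by TMM, y axes start at 0) of each of the 9 genes in the 3 MRL/lpr and 3 MRL/mpj libraries, with the mean ± SD as a black bar. Pdgfb and Hbegf lie higher in all MRL/lpr libraries, Tgfb2 and Vegfa lie lower, and for Tgfa the third library of each strain stands apart from the other 2.

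The genes spanned a wide range of levels. By deposited FPKM, which divides by gene length and depth, Tgfb1 ranked first in the MRL/mpj libraries, with a median of 69.6 FPKM (range 64.6 to 69.7), and Pdgfb ranked second, with a median of 56.5 FPKM (55.3 to 57.9). In the MRL/lpr libraries this order was turned, with Pdgfb at a median of 81.2 FPKM (80.8 to 83.7) and Tgfb1 at 54.3 FPKM (51.2 to 66.1). In neither strain did the FPKM ranges of these 2 genes overlap. The next group lay about an order of magnitude lower. Pdgfa had medians of 7.77 FPKM in MRL/lpr and 7.71 FPKM in MRL/mpj, and Hbegf had medians of 9.42 and 5.99 FPKM. The FPKM ranges of Hbegf and Pdgfa overlapped in MRL/lpr but not in MRL/mpj. Vegfa followed with medians of 2.27 and 3.83 FPKM, and Tgfb2 with medians of 1.46 and 2.86 FPKM, and these neighbours were separate in both strains. Tgfa could not be placed, because its range of 2.13 to 17.8 FPKM in MRL/lpr covered the ranges of Pdgfa and Hbegf and overlapped that of Vegfa, and its range of 5.27 to 21.9 FPKM in MRL/mpj covered those of Pdgfa and Hbegf. Igf1 did not exceed 0.12 FPKM and Bdnf did not exceed 0.05 FPKM in any library.

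Pdgfb (ENSMUSG00000000489, GRCm38 chromosome 15, 79995874 to 80014977, minus strand) encodes the B chain of platelet-derived growth factor. It was counted 18137, 18815 and 17126 times in MRL/lpr and 12722, 12619 and 13461 times in MRL/mpj. Every MRL/lpr library was above every MRL/mpj library, and replicates lay close together. The means were 398 ± 12.1 CPM and 253 ± 5.60 CPM (SD, n = 3 each). The log2 fold change was 0.66 (standard error, SE, 0.06, 95% interval 0.52 to 0.79, edgeR adjusted p = 5.42e-05). Pdgfa, the A chain (ENSMUSG00000025856, chromosome 5, 138976014 to 138997370, minus strand), was counted 1280, 1630 and 1231 times in MRL/lpr and 1255, 1337 and 1349 times in MRL/mpj. After scaling, its CPM did not overlap between the strains, with 27.2 to 34.6 CPM against 24.4 to 26.7 CPM, but its log2 fold change of 0.24 did not pass the test (SE 0.11, edgeR adjusted p = 0.164). An antisense gene, 6330403L08Rik, overlaps Pdgfa and had 742 to 973 counts per library. Whether the counting used strand is not given in the sources used here, so reads of these 2 genes may not be separated.

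Hbegf (ENSMUSG00000024486, chromosome 18, 36504927 to 36515805, minus strand), which encodes an EGF receptor ligand that binds heparin, was counted 2556, 2462 and 1811 times in MRL/lpr and 1440, 1659 and 1620 times in MRL/mpj. The third MRL/lpr library was the lowest of its strain and still lay above each MRL/mpj library. The means were 50 ± 5.87 CPM and 30.8 ± 2.60 CPM (SD, n = 3 each), with a log2 fold change of 0.70 (SE 0.11, 95% interval 0.45 to 0.95, edgeR adjusted p = 0.00188). Pdgfb and Hbegf rose beside a list of 14 immediate-early and stress genes that respond to tissue dissociation, such as Fos, Egr1 and Hspa1a. All 14 were called higher in MRL/lpr, beside 11.1% of all tested genes, with a median log2 fold change of 0.92. Their summed level was 49300 to 55800 CPM in the MRL/lpr libraries and 28200 to 29900 CPM in the MRL/mpj libraries, and none of the 14 was at 0. Their part in the values of Pdgfb and Hbegf was not tested.

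Tgfb2 (ENSMUSG00000039239, chromosome 1, 186622792 to 186705989, minus strand) encodes TGF-beta 2. It was counted 419, 457 and 482 times in MRL/lpr and 941, 891 and 757 times in MRL/mpj. The highest MRL/lpr library stayed below the lowest MRL/mpj library. The means were 10.1 ± 1.34 CPM and 16.9 ± 2.05 CPM (SD, n = 3 each), and the log2 fold change was -0.75 (SE 0.15, 95% interval -1.09 to -0.41, edgeR adjusted p = 0.00651). It was the largest change among the 4 called genes. The 3 tested genes whose log2 CPM profile over the 6 libraries, centred on its mean, lay nearest to that of Tgfb2 were Gdf15, mt-Tn and Sh3d19, with root mean square differences of 0.0568, 0.0685 and 0.0686 on the log2 scale.

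Vegfa (ENSMUSG00000023951, chromosome 17, 46016993 to 46032369, minus strand) was counted 491, 529 and 514 times in MRL/lpr and 816, 959 and 923 times in MRL/mpj. The strains did not overlap. The means were 11.3 ± 0.931 CPM and 17.6 ± 1.66 CPM (SD, n = 3 each), with a log2 fold change of -0.64 (SE 0.13, 95% interval -0.92 to -0.35, edgeR adjusted p = 0.00674). Tgfb2 and Vegfa fell beside marker lists of other brain cells. The summed level of 6 choroid plexus and ependyma genes was 356 to 372 CPM in MRL/lpr and 1050 to 1130 CPM in MRL/mpj, with 4 of the 6 lower. That of 5 pericyte and mural cell genes was 256 to 326 CPM against 547 to 573 CPM, with 3 of the 5 lower. That of 8 neuronal genes was 11.9 to 14.6 CPM against 26.9 to 31.6 CPM, with 2 of the 8 lower. Over all tested genes, 9.06% were called lower in MRL/lpr. No choroid plexus or mural cell gene was at 0, while the neuronal markers Rbfox3 and Gad2 each had 0 counts in 1 MRL/lpr library. The part of these cells in the values of Tgfb2 and Vegfa was not tested, and in bulk RNA fewer cells of a type and less RNA per cell cannot be told apart.

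The sequences before the start sites of the 2 genes that fell are shown to give what lies there. They are the 250 bases before the RefSeq start on GRCm38.p6, minus strand, read 5′ to 3′, at chr1:186705990-186706239 for Tgfb2 and chr17:46032378-46032627 for Vegfa (the window of its most upstream start). Capitals mark matches, on either strand, to TATAAA (the TATA box), CCAAT (the CCAAT box), GGGCGG (the GC box), TGANTCA (AP-1), TGACGTCA (the CRE), GCGNGGGCG (EGR) and ACGTG (the core of hypoxia response elements).
Tgfb2: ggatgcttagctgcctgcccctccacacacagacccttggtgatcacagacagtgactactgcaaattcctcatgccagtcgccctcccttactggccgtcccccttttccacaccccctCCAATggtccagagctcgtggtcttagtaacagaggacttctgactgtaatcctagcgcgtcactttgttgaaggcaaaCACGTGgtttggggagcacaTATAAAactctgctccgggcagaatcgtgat
Vegfa: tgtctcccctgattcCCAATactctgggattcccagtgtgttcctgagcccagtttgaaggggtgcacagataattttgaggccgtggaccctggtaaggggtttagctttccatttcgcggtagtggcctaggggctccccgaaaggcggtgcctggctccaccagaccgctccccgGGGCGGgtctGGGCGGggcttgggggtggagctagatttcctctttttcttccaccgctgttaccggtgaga
The Tgfb2 window held TATAAA with its first base at position -31 from the start, CCAAT at position -130, and CACGTG, which contains ACGTG on both strands in overlap. The Vegfa window held CCAAT at position -235 and GGGCGG at positions -72 and -62. Over 32851 windows of 250 bases before to 50 after a start, 13.6% held TATAAA, 37.4% CCAAT, 35.7% GGGCGG and 19.6% ACGTG, and 7.81%, 1.79% and 5.55% held the AP-1, CRE and EGR letters. Among the motifs searched, these 2 windows shared CCAAT. A second RefSeq window of Vegfa, further downstream, held a CCAAT box, a GC box and the hypoxia response core.

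Tgfa (ENSMUSG00000029999, chromosome 6, 86195223 to 86275719, plus strand) encodes TGF-alpha. Taking replicates 1, 2 and 3 in turn, its counts were 864, 748 and 5858 for MRL/lpr, and 7729, 7647 and 1914 for MRL/mpj. One library of each strain went against the other 2. MRL/lpr replicate 3 came close to the high MRL/mpj libraries, and MRL/mpj replicate 3 fell well below its companions while still above the low MRL/lpr libraries. The deposited FPKM values followed the counts, at 2.46, 2.13 and 17.8 in MRL/lpr and 21.6, 21.9 and 5.27 in MRL/mpj. The log2 fold change was -0.97 with a standard error of 1.18 and a 95% interval of -4.15 to 2.22 (edgeR adjusted p = 0.661). Without MRL/lpr replicate 3 it was -2.72 (edgeR adjusted p = 0.144), and without MRL/mpj replicate 3 it was -1.39 (edgeR adjusted p = 0.586). Neither a difference nor its absence can be read from these libraries.

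Such a spread was rare. The highest library of a strain exceeded the lowest by 8.82-fold in MRL/lpr and by 4.16-fold in MRL/mpj for Tgfa, whereas for the other 6 factor genes with a mean of at least 10 CPM the ratio was at most 1.37. Among 9298 genes with a mean of at least 10 CPM, the median ratio was 1.19 in MRL/lpr and 1.13 in MRL/mpj, and 10 genes, or 0.108%, had a ratio of at least 4 in both strains. Sept2, a septin gene among these 10 that was chosen after its values were seen, was counted 1180, 802 and 4526 times in MRL/lpr and 4966, 715 and 2024 times in MRL/mpj, so that MRL/lpr replicate 3 was high there as well but MRL/mpj replicate 2 was the low library. Gm43917, annotated on the opposite strand across Tgfa, had only 34 to 84 counts per library. The 3 genes with the nearest profile to Tgfa, looked up after its values were seen, were A830005F24Rik, Gm4342 and Gm17200, all with at most 20 counts per library.

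Tgfb1 (ENSMUSG00000002603, chromosome 7, 25687002 to 25705077, plus strand), the main TGF-beta gene of microglia, was counted 13928, 14787 and 16903 times in MRL/lpr and 19399, 18871 and 18209 times in MRL/mpj. In CPM the strains overlapped, because MRL/lpr replicate 3 was the highest of all 6 libraries at 404 CPM. The log2 fold change was -0.12 (SE 0.11, 95% interval -0.37 to 0.13, edgeR adjusted p = 0.507). Without MRL/lpr replicate 3 it was -0.27 and passed the test (edgeR adjusted p = 0.00714). That library decides the call.

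Igf1 (ENSMUSG00000020053, chromosome 10, 87858265 to 87937042, plus strand) was counted 65, 29 and 19 times in MRL/lpr and 45, 46 and 61 times in MRL/mpj. These counts overlapped fully and were near the limit of what could be tested. The log2 fold change was -0.27 (SE 0.50, 95% interval -1.40 to 0.86, edgeR adjusted p = 0.772), an interval too wide to tell a fall from a rise at this depth, and without MRL/lpr replicate 3 the value was 0.02. Bdnf (ENSMUSG00000048482, chromosome 2, 109674700 to 109727007, plus strand) was counted 4, 0 and 0 times in MRL/lpr and 17, 4 and 4 times in MRL/mpj. A library with 0 counts allows up to 3 read pairs. If 4 counts stand for 1 read pair here, the counts of Bdnf amount to at most a few pairs per library. DESeq2, which did not apply the filter, gave -2.51 in log2 (adjusted p = 0.457).

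**Figure D2:**
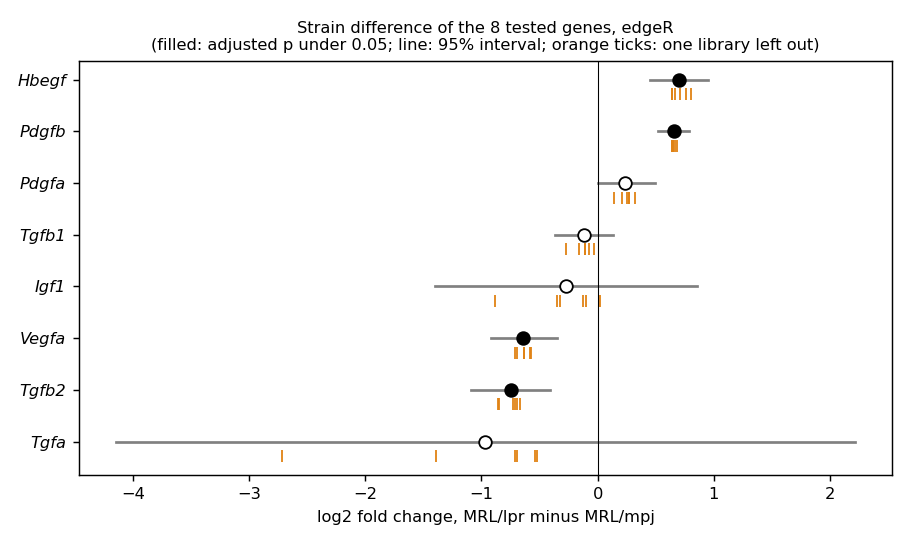
Log2 fold change (x axis, MRL/lpr minus MRL/mpj) of the 8 tested genes with its 95% interval as a line, filled where the adjusted p was under 0.05. Orange ticks give the value with each library left out, and they spread from -2.72 to -0.52 for Tgfa but only from 0.64 to 0.68 for Pdgfb.

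Lists of 110 other genes, 94 of them tested, were taken beside the 9. They hold the other ligands, receptors, binding proteins, inhibitors and targets of the 6 families, and 18 ligands of other trophic families. In MRL/lpr, edgeR called 10 of the 94 higher and 20 lower, beside 11.1% and 9.06% of all tested genes. The same shares stand beside the counts called in each list below. The median log2 fold change of the 94 genes was -0.06. With scaling by library size only, 8 were higher and 25 were lower. Some receptor values rest on few counts: Egfr and Erbb4, the receptors of HB-EGF, had 16 to 82 and 15 to 42 counts per library, and Ngfr, the p75 neurotrophin receptor, had 4 to 22.

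In the IGF list, 2 of 13 tested genes were higher, 1 without MRL/mpj replicate 3, and 3 were lower. Igf2, a fetal growth factor that choroid plexus keeps making in the adult brain, was counted 553, 1374 and 1021 times in MRL/lpr and 5274, 5225 and 5698 times in MRL/mpj. Its log2 fold change was -2.28 (SE 0.34, edgeR adjusted p = 0.00738), a call lost when MRL/lpr replicate 3 was dropped (adjusted p = 0.0504). Igfbp2, a binding protein that holds IGFs in the extracellular fluid, went from 40.1 ± 3.61 CPM in MRL/mpj to 8.54 ± 1.65 CPM in MRL/lpr (SD, n = 3 each), a log2 fold change of -2.23. Both lie far below the median of their list, 0.17. Both were lower in MRL/lpr, as was the summed level of the choroid plexus markers, whose part was not tested. Igf1r had a log2 fold change of 0.17 (95% interval -0.04 to 0.37) and the insulin receptor gene Insr one of 0.47 (-0.38 to 1.31), and neither passed the test. One MRL/mpj library, replicate 3, had 2197 counts of Insr against 4846 and 4995 in the other 2.

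Of the TGF-beta list, 5 of 31 tested genes were higher and 5 were lower, with a median log2 fold change of -0.04. Scaling by library size only gave 3 higher and 9 lower. Dropping 1 library gave 3 to 5 higher, the fewest without MRL/mpj replicate 2 or 3, and 3 to 8 lower, the fewest without MRL/lpr replicate 2 or MRL/mpj replicate 2 and the most without MRL/lpr replicate 3. Neither ligand receptor passed the test, with log2 fold changes of -0.15 for Tgfbr1 (95% interval -0.32 to 0.03) and -0.14 for Tgfbr2 (-0.26 to -0.01), although both passed as lower with scaling by library size only, at -0.27 and -0.26. Ltbp1, which binds latent TGF-beta in the matrix, fell by 1.36 on the log2 scale (SE 0.17, edgeR adjusted p = 0.000441). Dcn, a matrix proteoglycan that can bind TGF-beta, had a log2 fold change of -1.5, but it lost the call in 4 of the 6 fits with one library left out. Among genes chosen after their values were seen, Thbs1, an activator of latent TGF-beta, rose by 0.75 on the log2 scale, the ubiquitin ligase gene Smurf1 by 0.69 and the signal transducer gene Smad3 by 0.42. The target genes Pmepa1 and Tgfbi had log2 fold changes of -0.45 and 0.26. Both passed the test, but with 1 library dropped Pmepa1 lost the call in 4 of 6 fits and Tgfbi in 5 of 6, and Tgfbi also lost it with scaling by library size only (0.13, edgeR adjusted p = 0.229) and with the replicate number as a block (edgeR adjusted p = 0.0983). Ccn2, also a target, had a log2 fold change of -0.15 and did not pass the test.

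In the VEGF list, 1 of 9 tested genes was higher and 3 were lower. Nrp1, a co-receptor for VEGF-A and semaphorins, was counted 1591, 1592 and 1229 times in MRL/lpr and 4244, 4387 and 4966 times in MRL/mpj, with no overlap. Its log2 fold change was -1.45 (SE 0.09, edgeR adjusted p = 7.67e-06). The ligand genes Vegfc and Pgf fell by 1.37 and 1.26 on the log2 scale, while Vegfb and Vegfd did not pass the test. With Vegfa, which is not in this list, 3 of the 5 VEGF family ligands were lower, beside 9.06% of all tested genes. Of the receptors, Flt1 rose by 0.36 (SE 0.06, edgeR adjusted p = 0.00393) and Kdr had a log2 fold change of 0.11 (95% interval -0.03 to 0.25), which became -0.01 when only library size was used for scaling. The summed level of 6 endothelial genes overlapped between the strains, at 1070 to 1190 CPM in MRL/lpr and 1070 to 1130 CPM in MRL/mpj.

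In the PDGF list, 2 of 5 tested genes were lower, and these were the 2 receptors. Pdgfrb, which marks pericytes, fell by 0.56 (SE 0.11, edgeR adjusted p = 0.00703), and Pdgfra, which marks oligodendrocyte precursors, had 84, 51 and 55 counts against 219, 146 and 152 counts and fell by 1.27. Pdgfra lost the call when either MRL/lpr replicate 2 or MRL/mpj replicate 1 was dropped. The receptors were thus lower in the libraries in which the ligand gene Pdgfb was higher. The summed level of 4 precursor markers was 7.08 to 12 CPM in MRL/lpr and 18.9 to 19.7 CPM in MRL/mpj, with Sox10 at 0 in 2 MRL/lpr libraries, and its part was not tested.

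In the EGF list, 2 of 14 tested genes were higher and 2 were lower. Errfi1, a feedback inhibitor of the EGF receptor that is induced on signalling, was counted 25561, 26464 and 18929 times in MRL/lpr and 10247, 9946 and 10095 times in MRL/mpj. It rose by 1.40 on the log2 scale (SE 0.08, edgeR adjusted p = 5.52e-06). The dissociation response genes rose in the same libraries, and their part in the value of Errfi1 was not tested. Signalling through the EGF receptor was not measured. Rhbdf2, which carries the sheddase ADAM17 to the surface, rose by 1.10 (SE 0.09), while Adam17 itself had a log2 fold change of -0.02 and did not pass the test. Lrig1, a membrane inhibitor of EGF receptors, fell by 1.08. Egfr was counted 22, 19 and 16 times in MRL/lpr and 82, 42 and 79 times in MRL/mpj and fell by 1.65, but it lost the call in 5 of the 6 fits with one library left out. Areg, another ligand, was counted 30, 15 and 10 times in MRL/lpr and 0, 0 and 4 times in MRL/mpj and did not pass the test (edgeR adjusted p = 0.0754). Ereg, Btc and Epgn had 0 counts in all 6 libraries, where each library allows up to 3 read pairs.

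In the neurotrophin list, 2 of 6 tested genes were lower and the other 4 did not pass the test. The count of lower genes was 0 without MRL/mpj replicate 2, 1 in 4 of the other fits with 1 library dropped, and 1 with the replicate number as a block. Ntrk2, the BDNF receptor gene, fell by 0.40 (SE 0.09, edgeR adjusted p = 0.0117), from 30.7 ± 0.956 CPM in MRL/mpj to 23.3 ± 0.993 CPM in MRL/lpr (SD, n = 3 each), and lost the call without MRL/mpj replicate 2 (edgeR adjusted p = 0.055). Ntrk3, the receptor of neurotrophin 3, was counted 129, 80 and 75 times in MRL/lpr and 207, 188 and 185 times in MRL/mpj. Its log2 fold change of -0.86 (edgeR adjusted p = 0.0477) lost the call in 5 of 6 fits with 1 library dropped and in the fit with the block. Ngfr had at most 22 counts in any library and a log2 fold change of -0.10. Of 16 other trophic factor genes tested, 3 were lower and the other 13 did not pass the test, though 1 was higher without MRL/lpr replicate 3. Ptn, the astrocyte and mural cell factor pleiotrophin, had the largest change of these 3, from 95.1 ± 1.95 CPM to 42.2 ± 6.24 CPM (SD, n = 3 each), a log2 fold change of -1.17. The lysosomal trophic factor genes Grn and Psap had log2 fold changes of 0.06 and -0.02.

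**Figure D3:**
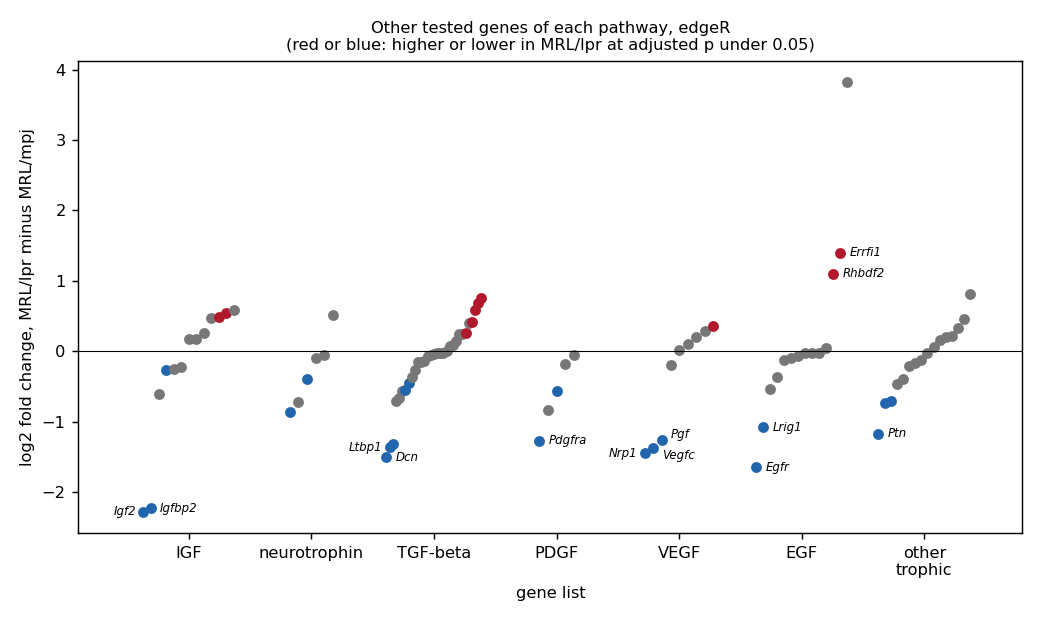
Log2 fold change (y axis, MRL/lpr minus MRL/mpj) of the 94 tested genes of the 7 lists, sorted within each list, red where higher and blue where lower at an adjusted p under 0.05. Igf2 and Igfbp2 lie lowest at -2.28 and -2.23, Errfi1 is the highest called gene at 1.40, and the grey point at 3.82 is Areg, with at most 30 counts in a library.

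The remaining marker lists describe the same preparations. The summed level of 12 microglial genes was 25200 to 28500 CPM in MRL/lpr and 28900 to 29600 CPM in MRL/mpj. Of the 12, 3 were called lower and 0 higher, beside 9.06% and 11.1% of all tested genes. The MRL/lpr sums include a jump of Cx3cr1 in replicate 2, at 2820 CPM against 226 and 247 CPM in replicates 1 and 3. Its MRL/mpj values were 558 to 564 CPM. That of 8 border macrophage genes was 52.9 to 55.2 against 59.1 to 68.0 CPM, and that of 8 neutrophil genes was 576 to 657 against 450 to 510 CPM. The 7 monocyte genes summed to 573 to 658 against 566 to 594 CPM, but Fn1 alone had means of 531 and 497 CPM. Monocyte calls went both ways, with log2 fold changes of 2.22 for Plac8, 0.96 for Vcan and -1.59 for Chil3. The other 4 monocyte genes did not pass the test. T cell genes summed to 16.4 to 24.6 against 4.44 to 4.77 CPM, NK cell genes to 10.1 to 10.2 against 2.86 to 4.07 CPM, and B cell genes to 9.20 to 10.5 against 8.43 to 10 CPM. Astrocyte genes summed to 116 to 162 against 195 to 201 CPM and oligodendrocyte genes to 130 to 153 against 164 to 195 CPM. Their part in the results was not tested.

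**Figure D4:**
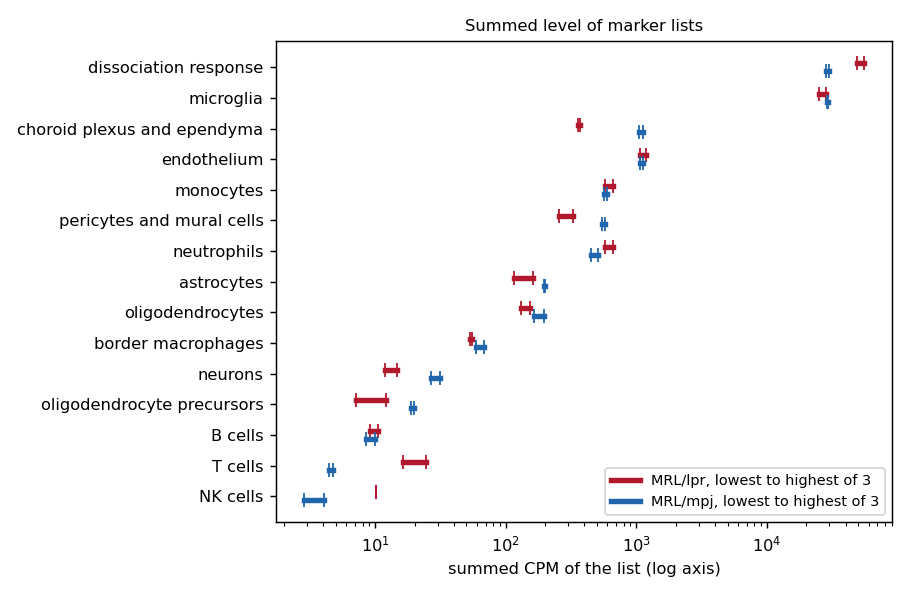
Summed CPM (log x axis) of each marker list, drawn from the lowest to the highest of the 3 libraries of each strain. The dissociation response list lies higher in MRL/lpr, and the choroid plexus, mural cell and neuron lists lie lower.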

How the data were processed

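RNA of purified brain microglia was sequenced as paired reads of 150 bp in 6 libraries, 3 per strain. Per the study's methods, the authors passed reads through Cutadapt and aligned them with HISAT2. The submitters' processing notes also list cutadapt 1.9.3, HISAT2 2.0.4, Cuffdiff 2.2.1, Cufflinks and the build GRCm38, while the counting tool and annotation are not given in the sources used here. The authors deposited raw counts, whole numbers for each gene, beside FPKM for each library, and FPKM served only to rank levels between genes. GENCODE M21 (GRCm38) gave symbols and positions for 55141 of 55401 identifiers. Promoter windows came from RefSeq (GRCm38.p6), with windows for 7 of the 9 genes and none for Pdgfb and Hbegf used here.

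The strain contrast was fitted in edgeR 4.0.16 under R 4.3.3 (filterByExpr with a minimum count of 10 and total of 15, TMM, robust dispersions, quasi-likelihood F test, no covariates), with Benjamini-Hochberg adjustment over all 19554 genes tested. Standard errors were taken from the F statistic. A fold change is in log2, MRL/lpr minus MRL/mpj. The study's methods name DESeq2, and DESeq2 1.42.0 was run as an alternative beside other normalizations, filters, dispersions, counts divided by 4, a replicate block and each library left out. The steps were tested on simulated data. The genes and lists were chosen with earlier results of these data known. The text names the 9 genes, their receptors, listed genes called with a log2 fold change of 1 or more in size, and the 3 genes nearest in profile to Tgfb2. Any further gene was picked with its values in view. The labels give rRNA depletion and a stranded kit, the methods mRNA purification. With 3 libraries against 3, an exact permutation p cannot fall below 0.1. Between replicates, the typical squared difference exceeded sampling noise by 8.86 to 24.4 times, or 2.22 to 6.10 times with 4 counts per read pair, so no 2 libraries were counted as one. The pairs with MRL/lpr replicate 3 gave 23.1 and 24.4 times, and every other pair gave at most 11.6 times. Some listed genes that were tested and counted are not reported here by name.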

Additional observations from a re-analysis of the deposited data

How the results depend on the processing

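The calls of Pdgfb, Hbegf, Tgfb2 and Vegfa kept their direction and side of the threshold in each of the 13 alternatives. Their log2 fold changes ran from 0.53 to 0.68, from 0.58 to 0.80, from -0.88 to -0.67 and from -0.76 to -0.57. With one library left out, Tgfb1 ran from -0.27 to -0.03, Igf1 from -0.88 to 0.02, and Ngfr from -0.55 to 0.36. The Tgfb1 call appeared, and the Igf1 sign turned, without MRL/lpr replicate 3, and the cause was not tested. DESeq2 gave no adjusted p for Tgfa, at a log2 fold change of -0.98. Scaling by library size only gave 2790 lower genes against 1772, and a value of -0.01 for Kdr. With one library left out, 1177 to 1971 genes were lower, the fewest without MRL/mpj replicate 1. With the replicate number as a block, 1754 genes were higher and 1309 lower, Tgfb2 had an adjusted p of 0.0303 from edgeR, no factor gene changed its call, and Ngfr had a log2 fold change of 0.12. Over all tested genes, same-numbered libraries did not deviate together, with correlations of -0.04, -0.02 and -0.03. A shared batch that touches only some genes could be missed by these correlations. Igf1, Bdnf, Egfr, Ngfr and Areg are limited by depth.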
